A study of Mus musculus with 6 samples.

Results

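The potassium and HCN channel genes comprise every measured gene whose symbol begins with Kcn or Hcn, apart from the Kcnip calcium sensors, and they numbered 82 of the 18194 genes read by the arrays. A gene can be read by several probe sets, each a handful of short oligonucleotides against its transcript; the brightest over all 6 arrays was used, and this choice took no account of the treatment. The 82 genes were read by 157 probe sets. Other genes of these families were not analysed here. The cells were mouse cells labelled NSP, usually short for neural stem/progenitor, from E12.5 brains, which had been cultured to confluence and replated. They were infected overnight with a lentivirus carrying a control shRNA (CTL, 3 samples) or an shRNA against REST (3 samples), and RNA was collected after 6 days. All samples share the culture, the infection and the time, and the labels name neither the strain of the mice, the number of embryos nor separate cultures for the samples. P-values thus reflect only how far these samples vary, which could be technical variation.

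Potassium channels set the resting potential and end the action potential. Voltage-gated Kv channels open on depolarisation, calcium-activated channels follow intracellular calcium, inward rectifiers (Kir) and K2P leak channels hold the membrane near the potassium potential, and HCN channels pass a depolarising current when the membrane hyperpolarises. Progenitors and astrocytes carry mainly leak and Kir conductances, and neurons add Kv, SK, M-current and HCN channels as they mature. REST represses many neuronal genes by binding the RE1 element near them, and genes for ion channels are among its known targets. The comparison asks how the channel genes differ between cells with and without the shRNA against REST.

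All values below are on the log2 scale of array signal. A signal reflects the probes as well as the transcript, so signals of different genes were not compared as levels. The highest value of 27 probe sets for Bacillus genes, 3.24, served as a reference for background, and 56 of the 82 genes had a mean above it. Differences of the other 26 rest on signals near background. Rest itself read 8.92, 8.75 and 8.90 in the control arrays 1, 2 and 3 and 8.63, 7.70 and 8.20 in the REST shRNA arrays 1, 2 and 3. The groups did not overlap, and the REST shRNA level was 62.5% of control (a log2 difference of -0.68; limma, unadjusted p = 0.0302). Without REST shRNA array 2 the difference was -0.44 (unadjusted p = 0.0559), and leaving out any single array other than REST shRNA array 1 took the unadjusted p over 0.05, to between 0.0554 and 0.0826. Averaged over its 4 probe sets on all 6 arrays, Rest differed by -0.64 (limma, unadjusted p = 0.00443, adjusted p = 0.9999). REST shRNA array 2 stood apart from the other arrays: 9.84% of all genes lay more than 1 log2 unit from the median of the other 5 arrays there, against 1.23% to 5.47% on each other array.

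The culture held RNA of several neural cell types, and their markers did not move alike. The mean signal over 13 neuron markers was 7.21 to 7.53 in the control arrays and 7.96 to 8.38 in the REST shRNA arrays. Of the 13, 5 were higher at an unadjusted p under 0.05 (1.78% of all genes), and 3, Dcx, Map2 and Elavl4, had negative differences. Some of these markers, Snap25 and Syn1 among them, are known REST targets themselves. The mean over 10 astrocyte markers was 8.81 on REST shRNA array 2 and 10.23 to 10.56 on the other arrays. All 10 had negative differences, where 42.8% of all genes did, and their median was -0.03 without REST shRNA array 2. Slc1a2 alone was lower at an unadjusted p under 0.05 (1.07% of all genes), without overlap. The mean over 9 oligodendrocyte lineage markers was 8.49 on REST shRNA array 2 and 8.78 to 9.79 elsewhere. Olig1 and Olig2 went against that mean and were highest on REST shRNA array 2. The mean over 9 progenitor markers was 10.08 to 10.14 in the control arrays and 9.85 to 10.03 in the REST shRNA arrays, so every REST shRNA array lay below every control, and 8 of the 9 had negative differences. Markers of microglia averaged 2.80 to 3.09 and those of endothelium and pericytes 3.05 to 3.28, both near or below the background reference, as was Kcnj8, a pericyte inward rectifier. In bulk RNA, fewer cells of a type and less RNA per cell cannot be told apart.

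No channel gene passed the adjusted threshold in either direction, and the median difference of the family lay near 0. In the limma fit over all 18194 genes, 0 of the 82 genes were called higher and 0 lower at an adjusted p under 0.05, where the background share of calls was 0.00% in each direction, and every member had an adjusted p of 1 after rounding. At an unadjusted p under 0.05, 2 members were higher (Hcn2 and Kcnk7) against a background of 1.78% of all genes, and 2 were lower (Kcnj13 and Kcnh7) against 1.07%, so 4.88% of members against 2.85% of all genes in either direction. In a fit with the replicate block, 2 members were higher (Hcn2 and Kcnk3, background 2.24%) and 4 lower (Kcnj13, Kcnmb4, Kcnh7 and Kcnj9, background 1.42%), or 7.32% of members against 3.66%, and again 0 were called (0.00% of all genes). The log2 difference was positive for 44 members and negative for 38. The median was 0.02 over the 82 genes and 0.04 over all genes tested. Estimated differences ran from -0.97 for Kcnj13 to 0.64 for Kcnh8, so no estimate reached 2-fold. True differences of 2-fold are not excluded, since confidence intervals of some members passed it. They were -1.58 to -0.36 for Kcnj13 and -2.74 to 1.05 for Kcnn2. The groups did not overlap for 9 members, or 11% of them, against 7.56% of all genes: 6 were higher (7.32% against 4.91%) and 3 lower (3.66% against 2.65%). Without REST shRNA array 2, 5 members were higher at an unadjusted p under 0.05 (4.22% of all genes) and 3 lower (1.63%), Kcnj13 among them but not Hcn2 or Kcnh7.

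**Figure D1:**
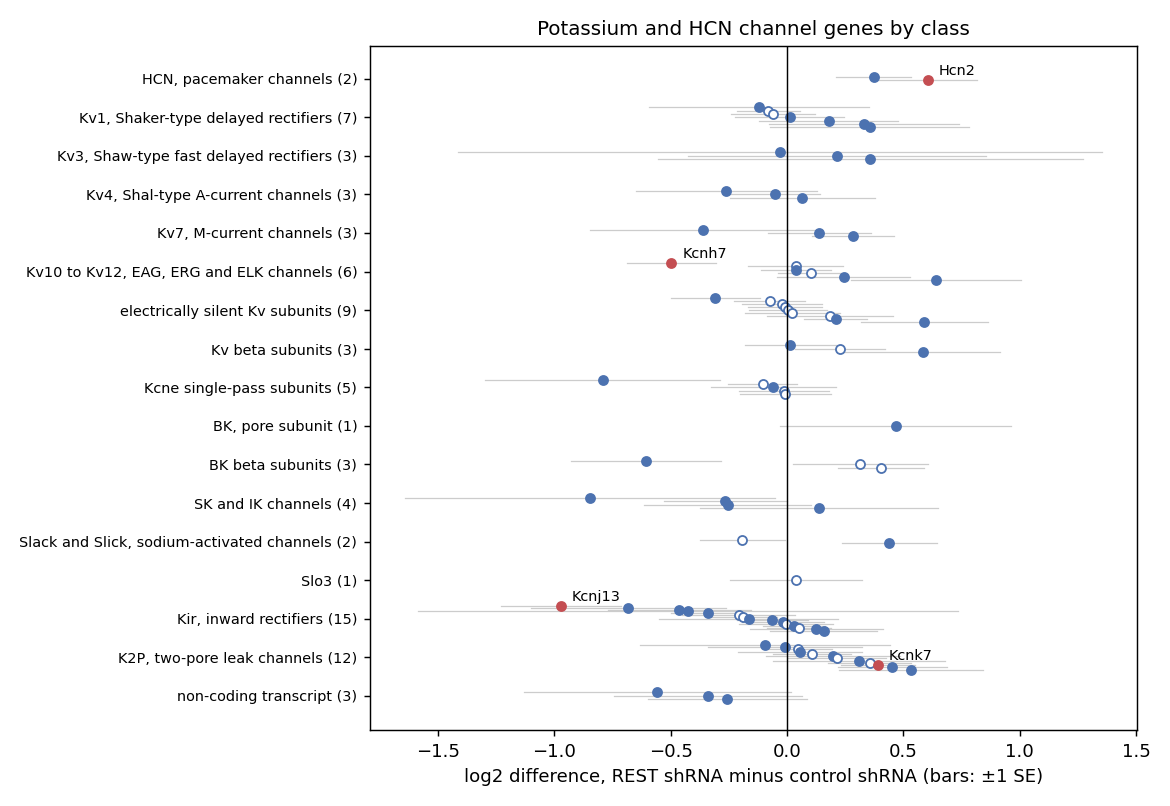
Log2 difference between REST shRNA and control shRNA (x axis, points with bars of 1 SE) for all 82 genes, grouped by channel class (y axis, number of genes in parentheses). Red marks the 4 genes with an unadjusted p under 0.05 and open points the 26 genes with a mean at or below the background reference; the classes straddle 0 except the HCN, Kv beta and BK pore genes and Slo3, which lie above it, and the Kcne and non-coding genes, which lie below it.

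The 250 bases upstream of the start site are shown for the 4 members with an unadjusted p under 0.05, since REST acts through sequences near its target genes. The RE1 core was searched as its left piece CAGCACC and right piece GGACAG, which do not overlap, on both strands of RefSeq promoter windows, which hold the 250 bases shown and a short stretch past the start site (build GRCm38.p6), and 61 of the 82 genes had a window. The stretches shown lie at chr10:79716384-79716633 on the + strand for Hcn2, chr19:5704221-5704470 on the + strand for Kcnk7, chr1:87394730-87394979 on the - strand for Kcnj13 and chr2:63184288-63184537 on the - strand for Kcnh7. Capitals mark such a piece, and one is present, in Kcnk7, where its first base lies 90 bases before the start site.
Hcn2: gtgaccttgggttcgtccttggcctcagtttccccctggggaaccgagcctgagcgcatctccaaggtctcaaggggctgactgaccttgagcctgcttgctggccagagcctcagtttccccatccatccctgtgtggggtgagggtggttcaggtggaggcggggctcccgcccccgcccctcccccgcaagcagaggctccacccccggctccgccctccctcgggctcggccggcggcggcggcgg
Kcnk7: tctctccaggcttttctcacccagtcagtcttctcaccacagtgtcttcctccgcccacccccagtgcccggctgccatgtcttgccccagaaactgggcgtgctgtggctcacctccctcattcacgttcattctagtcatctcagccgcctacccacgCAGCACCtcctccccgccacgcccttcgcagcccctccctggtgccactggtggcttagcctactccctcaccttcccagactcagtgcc
Kcnj13: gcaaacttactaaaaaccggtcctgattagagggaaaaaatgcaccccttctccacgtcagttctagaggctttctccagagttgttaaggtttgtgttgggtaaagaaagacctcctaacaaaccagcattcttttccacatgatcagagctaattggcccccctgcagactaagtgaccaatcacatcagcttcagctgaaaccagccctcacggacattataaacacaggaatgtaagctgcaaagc
Kcnh7: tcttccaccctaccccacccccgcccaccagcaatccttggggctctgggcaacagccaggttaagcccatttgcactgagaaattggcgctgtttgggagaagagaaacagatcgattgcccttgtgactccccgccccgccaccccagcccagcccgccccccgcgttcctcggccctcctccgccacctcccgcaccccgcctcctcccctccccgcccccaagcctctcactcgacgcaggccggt
The left piece CAGCACC stood in 10 of 81 windows of these channel genes (12.3%) and in 7.14% of all 32851 windows, and GGACAG in 28.4% and 22.2%. Both pieces in that order with 2 bases between them, the spacing of the full element, stood in 0 of the 81 windows and in 12 of all windows (0.0365%). The Hcn2 stretch held 70.4% G and C, and those of Kcnh7, Kcnk7 and Kcnj13 held 67.6%, 62.4% and 45.2%. A match is a run of letters, not a measured site, and sequence beyond these windows was not searched.

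The HCN genes were the class in which both measured members stood higher in every REST shRNA array than in any control array. Hcn2, which encodes a cyclic nucleotide-gated pacemaker channel of central neurons, read 4.46, 4.82 and 4.10 in the control arrays 1, 2 and 3 and 5.0, 5.18 and 5.02 in the REST shRNA arrays. All 3 REST shRNA values lay close together and above the highest control. The difference was 0.60 ± 0.21 (SE, log2, n = 3 per group), or 1.52-fold (limma, unadjusted p = 0.0246), and it was largest in pair 3, where the control array was the dimmest. Hcn3, a slower channel of the same family, read 3.41, 3.14 and 3.15 in control and 3.64, 3.44 and 3.73 in REST shRNA. Control arrays 2 and 3 lay below the background reference of 3.24 and the other arrays above it, and the difference of 0.37 ± 0.16 had an unadjusted p of 0.0543 in limma. Without control array 3 no member was higher at the unadjusted threshold, Hcn2 included.

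Pex5l, which encodes the HCN auxiliary subunit TRIP8b, stood higher with them. It read 4.11, 3.57 and 3.74 in control and 4.29, 4.60 and 4.48 in REST shRNA, without overlap. The difference was 0.65 ± 0.19 (SE, log2), or 1.57-fold (limma, unadjusted p = 0.0122). A second probe set of Pex5l read 0.49 higher, and 2 dim ones differed by -0.05 and 0.47. Each of Hcn2 and Hcn3 was read by a single probe set, so no second reading was at hand. The mean over the neuron markers stood higher in the same 3 arrays, although 3 of the 13 markers had negative differences. Their part in the HCN values was not tested.

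**Figure D2:**
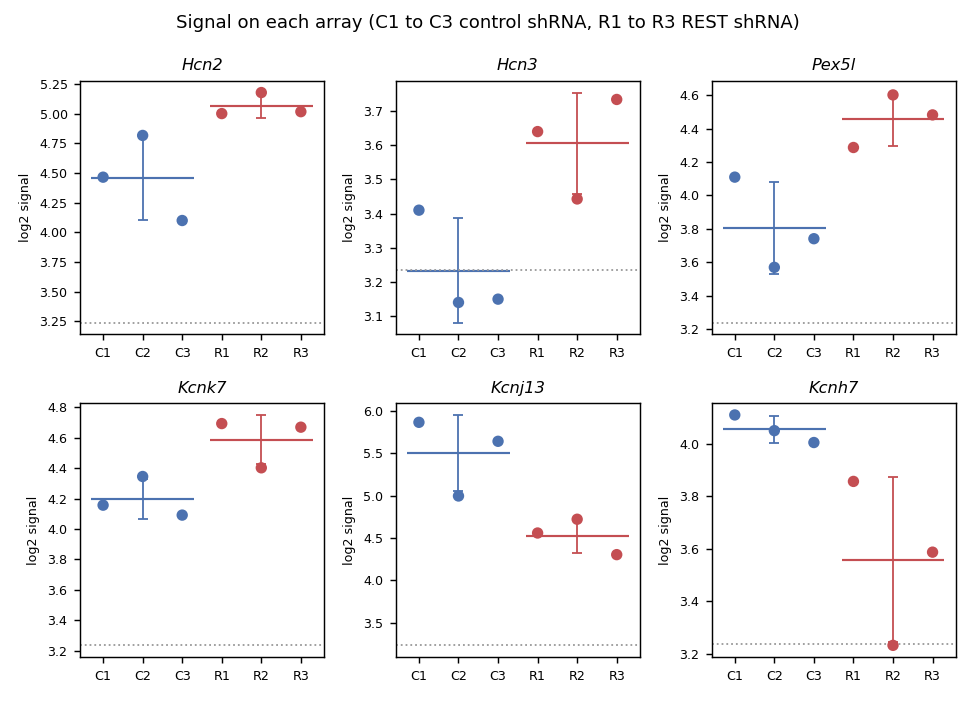
Log2 signal (y axis) of Hcn2, Hcn3, Pex5l, Kcnk7, Kcnj13 and Kcnh7 on each array (x axis, C1 to C3 control shRNA in blue, R1 to R3 REST shRNA in red), with the group mean as a line, bars of 1 SD and a dotted line at the background reference of 3.24 where it is near. The groups do not overlap in any panel: they are higher in REST shRNA for Hcn2, Hcn3, Pex5l and Kcnk7 and lower for Kcnj13 and Kcnh7.

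Among the pore subunits of Kv channels, 22 genes in 5 classes were measured, and Kcnh7 alone passed the unadjusted threshold. The 7 Kv1 genes, delayed rectifiers of axons, had a median difference of 0.01, with a range from -0.12 to 0.35, and 4 were positive. Kcna2, an axonal Kv1 subunit, read 8.33, 8.35 and 8.32 in control, a span of a few hundredths. In REST shRNA it read 8.29, 9.19 and 7.16, so array 2 was high, array 3 low and array 1 level with control, and the difference was -0.12 ± 0.47 (SE, log2). In its next 2 probe sets as well, REST shRNA array 2 was the highest and array 3 the lowest. Kcna1, the Kv1 gene with the smallest p, differed by 0.35 ± 0.43 through REST shRNA array 3, which read 4.57 where the other 5 arrays read 2.93 to 3.52.

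The Kv3 genes, fast channels that let neurons fire at high rates, varied most between arrays. Kcnc4 spanned 5.36 log2 units over the 6 arrays, more than any other member. It read 6.72, 8.25 and 6.04 in control and 4.88, 10.25 and 5.78 in REST shRNA. REST shRNA array 2 was the highest of all and array 1 the lowest, so the group means, 7.0 and 6.97, hide opposite values. The difference was -0.03 ± 1.38 (SE, log2), and without REST shRNA array 2 it was -1.67 ± 0.65 (limma, unadjusted p = 0.0409). This probe set can match several transcripts, and the second probe set of Kcnc4 spanned less, from 5.51 to 6.06, again with REST shRNA array 2 the highest.

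Kcnc1, another Kv3 subunit, read 6.88, 7.56 and 6.52 in control and 6.43, 8.71 and 6.47 in REST shRNA. REST shRNA array 2 was the highest array for each of its 4 probe sets. Kcnc2 read 1.89, 3.67 and 4.84 in control and 2.90, 3.16 and 5.40 in REST shRNA, so its arrays numbered 3 were the brightest in each group. The Kv3 differences of 0.21 ± 0.64 for Kcnc1 and 0.36 ± 0.91 for Kcnc2 were smaller than their standard errors.

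The 3 Kv4 genes, which carry the A-type current, had differences from -0.26 to 0.07. Kcnd3 read 8.95, 8.98 and 9.31 in control and 8.80, 9.31 and 8.96 in REST shRNA, and the difference of -0.05 had a 95% interval of -0.52 to 0.41. Kcnd2 read 8.95, 8.74 and 7.81 in control and 8.49, 8.63 and 7.60 in REST shRNA. The arrays numbered 3 were the dimmest in each group, and Kcnd2 was lower in all 3 pairs, by -0.26 ± 0.39 (SE, log2). Its next 2 probe sets differed by -0.46 and -0.58. Kcnd1 differed by 0.07 ± 0.31.

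In the Kv7 class, which gives the M-current that limits repetitive firing, Kcnq5 read 4.71, 5.17 and 4.78 in control and 5.17, 5.28 and 5.06 in REST shRNA. The groups overlapped and the difference was 0.28 ± 0.18 (SE, log2), while its second probe set, less bright, differed by -0.12. Kcnq3 read 4.32, 4.71 and 5.21 in control and 3.91, 3.77 and 5.48 in REST shRNA. Arrays 1 and 2 of REST shRNA lay below every control and array 3 above every control, so no common direction was seen, with a difference of -0.36 ± 0.48. Kcnq1, a Kv7 gene of heart and epithelia, differed by 0.14.

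Of the 6 EAG, ERG and ELK genes, 5 had a positive and 1 a negative difference. Kcnh7, which encodes the ERG channel Kv11.3 of neurons, read 4.11, 4.05 and 4.01 in control and 3.86, 3.23 and 3.59 in REST shRNA. The controls lay close together and every REST shRNA array lay below them. The difference was -0.50 ± 0.19 (SE, log2), a level of 70.9% of control (limma, unadjusted p = 0.0370), at a signal close to background. Kcnh3, the brightest of the class, differed by 0.04 ± 0.15 and Kcnh2, which encodes the ERG channel known from cardiac repolarisation, by 0.24 ± 0.29. Kcnh8 had the largest positive difference of the whole family at 0.64 ± 0.37, which rested on REST shRNA array 2 at 4.45, where the other 5 arrays read 2.87 to 3.24.

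Electrically silent Kv subunits, which form no channel alone and alter Kv2 channels when they join them, were near background in 6 of 9 genes. The median difference was 0.00, with 5 positive and 4 negative. Kcnf1 read 3.75, 3.58 and 3.57 in control and 3.84, 4.0 and 4.83 in REST shRNA. The groups did not overlap, and most of the difference of 0.59 ± 0.27 (SE, log2; limma, unadjusted p = 0.0696) came from REST shRNA array 3. Kcng1 read 3.75, 3.94 and 3.82 in control and 4.05 in each REST shRNA array, a small difference of 0.21 ± 0.14. Kcng2 had the largest negative difference of the class at -0.31 ± 0.19.

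The auxiliary subunits did not share a direction. Of the Kv beta subunits, cytoplasmic partners of Kv1 channels, Kcnab2 read 4.48, 4.99 and 4.45 in control and 4.60, 5.23 and 5.84 in REST shRNA. It was higher in all 3 pairs, by 0.58 ± 0.33 (SE, log2), but its second probe set differed by -0.06. All 5 Kcne genes, single-pass subunits of Kv channels, had negative differences, where 42.8% of all genes did, and 3 of them lay below background. Apart from Kcne1l these differences were close to 0, from -0.11 for Kcne3 to -0.01 for Kcne1. Kcne1l, the brightest of them, read 6.85, 6.34 and 5.79 in control and 4.64, 5.41 and 6.55 in REST shRNA. The first and second REST shRNA arrays lay below every control, unlike array 3, and the difference was -0.79 ± 0.51.

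Among calcium-activated channels, several had their extreme value on REST shRNA array 2. Kcnma1, the pore subunit of the large-conductance BK channel, read 4.46, 4.33 and 4.28 in control and 4.28, 6.05 and 4.14 in REST shRNA. REST shRNA array 2 was the highest array for each of its 5 probe sets, and the other 5 arrays of the one used lay between 4.14 and 4.46. The difference of 0.47 ± 0.49 (SE, log2) turned to -0.15 ± 0.15 without that array. Kcnmb4, the BK beta subunit of brain, read 7.90, 8.18 and 7.13 in control and 7.04, 7.54 and 6.81 in REST shRNA. It was lower in all 3 pairs, although the groups overlapped through control array 3. Its difference was -0.61 ± 0.32 (limma, unadjusted p = 0.103), and an unadjusted p of 0.0200 in the fit with the replicate block. Kcnmb1, the BK beta subunit of smooth muscle, differed by 0.40 ± 0.19 below background.

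Kcnn2, which encodes the small-conductance channel SK2 of the afterhyperpolarisation, read 9.04, 9.12 and 8.96 in control and 9.40, 6.18 and 9.0 in REST shRNA. Signal was far lower on REST shRNA array 2 than on the other arrays, which lay between 8.96 and 9.40. The difference was -0.85 ± 0.79 (SE, log2), and 0.16 ± 0.18 without that array. Kcnn1 and Kcnn3, the other SK genes, were also lowest on REST shRNA array 2, at 5.32 and 7.08. Kcnn4, which encodes the intermediate-conductance channel of non-neuronal cells, went the other way and was highest there, at 5.93 against 3.94 to 5.05 on the other arrays. Among sodium-activated channels, Kcnt1, the neuronal Slack channel, read 5.03, 4.38 and 4.53 in control and 5.18, 4.98 and 5.10 in REST shRNA. It was higher in all 3 pairs, with control array 1 inside the REST shRNA range, and differed by 0.44 ± 0.20 (limma, unadjusted p = 0.0697). Kcnu1, the sperm channel Slo3, lay below background and differed by 0.04.

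More channel genes stood apart on REST shRNA array 2 than on any other array. On it 13 members, or 15.9%, lay more than 1 log2 unit from the median of the other 5 arrays, against 9.84% of all genes. Of these, 10 were above, among them Kcnc1, Kcnc4, Kcnma1, Kcnk5, Kcnn4 and Kcna3, and 3 were below, Kcnn1, Kcnn2 and Kcnk2. REST shRNA array 3 had 11 such members, 13.4% against 5.47% of all genes. Control arrays 1 and 2 had 6 each, 7.32% against 1.23% and 1.62%. REST shRNA array 1 had 4 (4.88% against 1.98%) and control array 3 had 3 (3.66% against 3.72%). The astrocyte marker mean was 8.81 and the oligodendrocyte lineage mean 8.49 on REST shRNA array 2, the lowest of all arrays for both, and their part in these channel values was not tested.

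**Figure D3:**
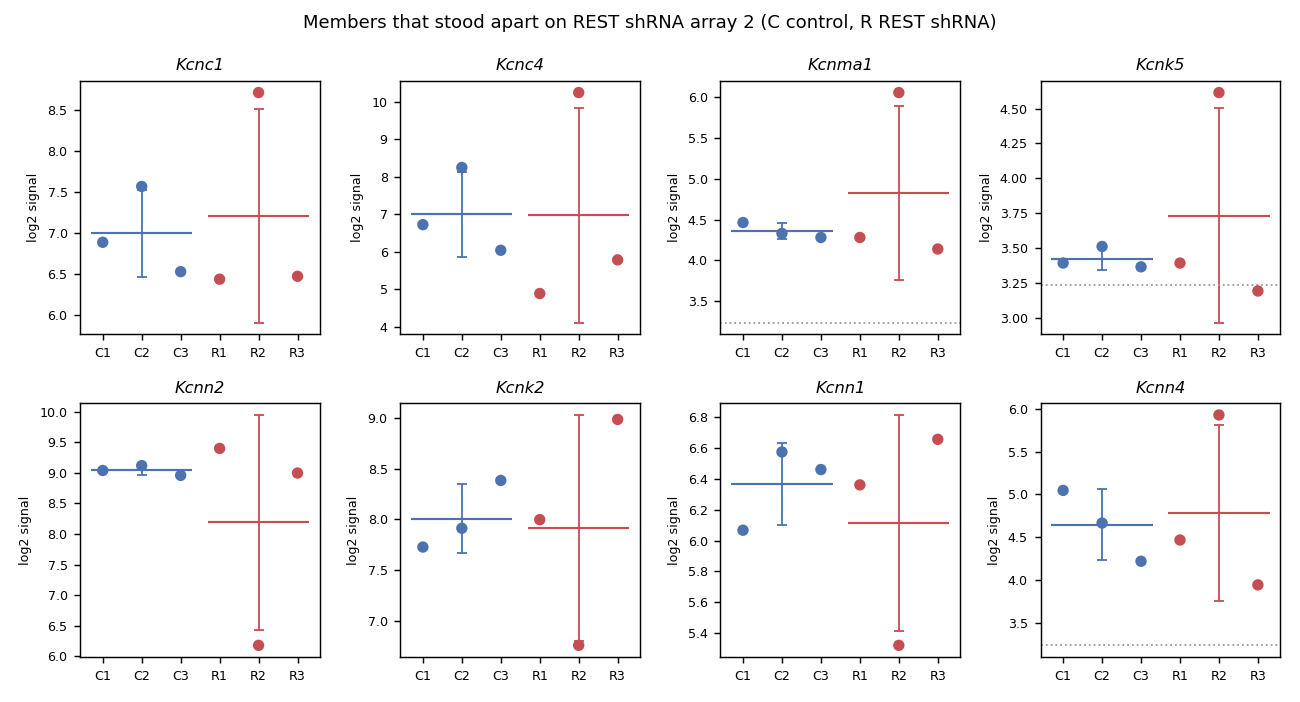
Log2 signal (y axis) of 8 members that lay more than 1 log2 unit from the median of the other arrays on REST shRNA array 2, on each array (x axis, C1 to C3 control shRNA in blue, R1 to R3 REST shRNA in red), with group means as lines, bars of 1 SD and a dotted line at the background reference where it is near. Kcnc1, Kcnc4, Kcnma1, Kcnk5 and Kcnn4 are highest on R2 and Kcnn2, Kcnk2 and Kcnn1 lowest.

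Of 15 inward rectifiers, 11 had negative differences, where 42.8% of all genes did, and the median was -0.16 against 0.04 over all genes. Without REST shRNA array 2 the median of the class was -0.05. Kcnj13, which encodes Kir7.1, a channel of ion-transporting epithelia, had the smallest p of all members. It read 5.86, 5.0 and 5.64 in control and 4.56, 4.72 and 4.30 in REST shRNA. Every REST shRNA array lay below every control, with control array 2 the closest. The difference was -0.97 ± 0.26 (SE, log2, 95% interval -1.58 to -0.36), a level of 51.0% of control (limma, unadjusted p = 0.00738), and it was lower in all 3 pairs. An unadjusted p under 0.05 remained in 15 of 17 alternative settings, with differences from -1.32 to -0.79. Kcnj13 was read by a single probe set, so the settings with other probe sets could not change its difference. Kir7.1 is known from choroid plexus, so markers of that epithelium, a list added after the values were seen, were read beside it. Of these, 9 of 10 had positive differences, where 57.2% of all genes did, although only 4 of the 10 lay above the background reference. Among those 4, Sostdc1 differed by 1.36 ± 0.41 (SE, log2) without overlap (limma, unadjusted p = 0.0135). Otx2 differed by 0.59 ± 0.55, through REST shRNA array 1 at 7.08, and Aqp1 by 0.30 ± 0.39, and in both the groups overlapped. Ttr, the most abundant transcript of that epithelium, read near 4.5 on the control arrays and differed by 0.08. The part of such cells in the Kcnj13 values was not tested. Kcnj14, a further Kir gene, read 4.27, 4.60 and 4.46 in control and 4.20, 4.14 and 3.96 in REST shRNA, without overlap, and differed by -0.34 ± 0.16 (limma, unadjusted p = 0.0710).

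Kcnj10, which encodes Kir4.1, the main glial potassium channel, read 8.17, 7.96 and 7.39 in control and 7.27, 6.96 and 7.90 in REST shRNA. It was lower in pairs 1 and 2 and higher in pair 3, so the difference of -0.46 ± 0.31 (SE, log2) did not have one direction. Its lowest value was on REST shRNA array 2, where astrocyte markers were also lowest. Without REST shRNA array 2 it differed by -0.26 ± 0.30. Kcnj9, a G protein-gated Kir of neurons, read 7.50, 7.58 and 6.06 in control and 6.43, 6.57 and 6.09 in REST shRNA. Control array 3 was as dim as the REST shRNA arrays, and without it the difference of -0.68 ± 0.42 became -1.18 ± 0.20 (limma, unadjusted p = 0.00147, adjusted p = 1). That was the largest difference of the 17 alternative settings. The smallest was -0.15, in a setting that took other probe sets of the gene and not in one that left out arrays. An unadjusted p under 0.05 was reached in 3 of the 17. Kcnj9 was read by 4 probe sets, and the size of its difference depended on which were used.

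In Kcnj16 the arrays numbered 3 stood apart in both groups. Kcnj16, a glial Kir that joins Kir4.1, read 8.56, 8.51 and 5.3 in control and 6.99, 8.83 and 5.27 in REST shRNA. Both arrays numbered 3 were more than 1 log2 unit below every other array, in its second probe set as well, and the difference between groups was -0.43 ± 1.16 (SE, log2). Kcnmb4os2, a non-coding transcript from the strand opposite Kcnmb4, read 5.40, 5.47 and 3.75 in control and 3.87, 5.23 and 3.85 in REST shRNA. Control array 3 and REST shRNA arrays 1 and 3 were thus dim and the other 3 arrays brighter. The mean over the smooth muscle and fibroblast markers was lower on the same dim arrays, largely through Acta2. The part of such cells in the Kcnmb4os2 values was not tested. The strand that the labelled cDNA kept is not given in the sources used here, so signals of Kcnmb4 and its opposite-strand transcripts may share RNA. Kcnq1ot1, the non-coding transcript of the imprinted Kcnq1 domain, differed by -0.34 ± 0.40 and was dimmest on REST shRNA array 3, while control array 3 lay between the other controls. The Gapdh 3' minus 5' signal, a measure of RNA and labelling quality, was 2.87 on control array 3 and 2.25 on REST shRNA array 3, against 1.72 to 1.94 on the others, and its part in these values was not tested.

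**Figure D4:**
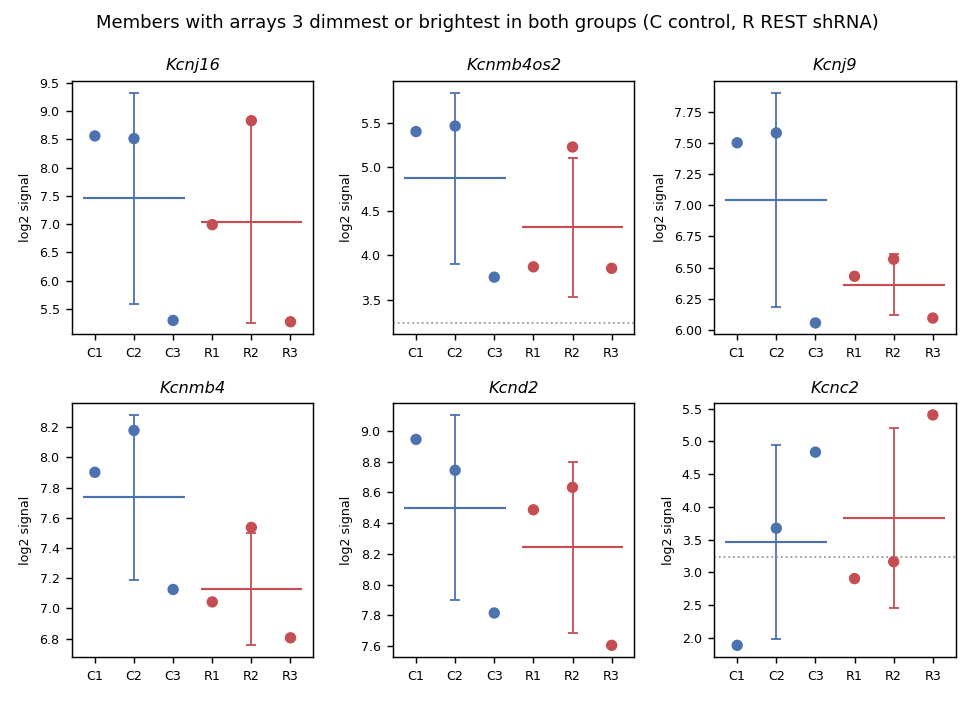
Log2 signal (y axis) of Kcnj16, Kcnmb4os2, Kcnj9, Kcnmb4, Kcnd2 and Kcnc2 on each array (x axis, C1 to C3 control shRNA in blue, R1 to R3 REST shRNA in red), with group means as lines, bars of 1 SD and a dotted line at the background reference where it is near. C3 and R3 are the dimmest of their group for Kcnj16, Kcnj9, Kcnmb4, Kcnd2 and, by a small margin for R3, Kcnmb4os2, and the brightest for Kcnc2.

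Of 12 K2P leak channels, 10 had positive differences, where 57.2% of all genes did, with a median of 0.21, or 0.28 without REST shRNA array 2. Kcnk7, a family member for which no current has been firmly shown, read 4.16, 4.35 and 4.09 in control and 4.69, 4.40 and 4.67 in REST shRNA. The groups were separated by a narrow gap between control array 2 and REST shRNA array 2. The difference was 0.39 ± 0.16 (SE, log2), or 1.31-fold (limma, unadjusted p = 0.0446), and the unadjusted p was 0.0921 in the fit with the replicate block. Kcnk3, which encodes the acid-sensitive channel TASK-1, read 4.68, 5.11 and 4.69 in control and 4.86, 5.99 and 5.23 in REST shRNA. It was higher in all 3 pairs while the groups overlapped, and differed by 0.53 ± 0.31 (unadjusted p = 0.129 in limma, and 0.0424 with the replicate block).

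Kcnk2, which encodes the mechanosensitive channel TREK-1 and was the brightest of the class, read 7.73, 7.91 and 8.38 in control and 8.0, 6.76 and 8.99 in REST shRNA. REST shRNA array 2 was the lowest and array 3 the highest of all arrays, and the difference was -0.09 ± 0.54 (SE, log2), or 0.48 ± 0.34 without array 2. Kcnk13 read 2.96, 2.93 and 2.84 in control and 3.30, 2.97 and 3.51 in REST shRNA, without overlap and around the background reference. Of the 4 K2P genes below that reference none had an unadjusted p under 0.05.

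Partner proteins of these channels that carry other names were read as well. Of 25 measured partner genes, 0 were called, 2 were higher at an unadjusted p under 0.05 (Pex5l and Kcnip1, 1.78% of all genes) and none was lower (1.07%). The median difference was 0.08, and 0.24 without REST shRNA array 2. In the fit with the replicate block 2 were higher (background 2.24%) and 1 lower (1.42%), Dpp10. This Kv4 partner, named after its values were seen, was lower in all 3 pairs, by -0.60 ± 0.41 (SE, log2). Its unadjusted p was 0.194 in limma and 0.0240 with the replicate block. Kcnip1, a calcium sensor that brings Kv4 channels to the surface, read 6.71, 7.21 and 7.22 in control and 8.56, 7.87 and 7.59 in REST shRNA. Every REST shRNA array lay above every control, and the difference was 0.96 ± 0.29 (SE, log2), or 1.95-fold (limma, unadjusted p = 0.0129). A second probe set of Kcnip1 read 1.33 higher, and the mean over its 4 probe sets differed by 0.69. The Kv4 pore genes themselves had a median of -0.05 over 3 genes. The 10 partners of Kv1 channels had a median of 0.10, or 0.41 without REST shRNA array 2, with none past the unadjusted threshold. Abcc8 and Abcc9, the sulphonylurea receptors of K-ATP channels, differed by 0.34 and 0.01, while their pore partner Kcnj11 differed by -0.06.

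Members with several probe sets allowed a check of the readings. Of 75 further probe sets in 42 genes, 39 had a mean above the background reference, and 27 of these 39 had a difference of the same sign as the one used. Over all 157 probe sets, 3 were higher and 2 lower at an unadjusted p under 0.05, and 0 passed the adjusted threshold in limma over all probe sets.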

How the data were processed

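RNA of 6 samples was read on 1-colour Affymetrix arrays. The deposited series table holds log2 signals per probe set, a unit read from their range of 1.00 to 14.2; the authors' background correction, probe summary and normalization are not given in the labels or headers used here. Sorted values of the arrays differed from their mean by 0.0224 on average, so the arrays share nearly one distribution, a change of total RNA per cell is hidden, and no scaling was added. The platform annotation gave gene names: 34958 probe sets had 1 gene, 932 several and 9211 were not listed. All genes were fitted in R 4.3.3 with limma 3.58.1 (lmFit, eBayes, two-sided; 4 residual degrees of freedom and 2.7 from the prior), with Benjamini-Hochberg adjustment over 18194 genes, a call being an adjusted p under 0.05. No filter on dim genes was applied. With 3 arrays per group, the number of arrays limits the precision.

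Groups and replicate numbers come from the titles. Between same-numbered arrays, deviations from group means had correlations of 0.108 (number 1), 0.365 (number 2) and 0.504 (number 3). Each was over 0.1, the limit set for calling them paired. Between arrays of unlike number the values ran from -0.426 to 0.268. The 0.268, for control 1 with REST shRNA 2, exceeded the 0.108 of number 1. Pair 1 is thus not singled out by the data, and the titles state no pairing. Pairs in the text are arrays of the same number. The p-values and standard errors given are from the fit without the block, and those of the block are named as such. The genes and lists were chosen with earlier results of these data known. Values per array are given for members with an unadjusted p under 0.05, for the brightest member and that with the smallest p of a class, and for partner genes with an unadjusted p under 0.05; other members with values (Hcn3, Kcnc4, Kcnk3, Kcnj9, Kcnj16 and the like) were chosen after their values were seen. Simulated data with the means and spreads of these genes were used to test the fit. At an adjusted p under 0.05 it recovered 26.15% of true 2-fold and 87.7% of true 4-fold changes, so most 2-fold changes were missed there. Alternatives comprised the block, other scalings, a filter on dim genes, other probe sets, a variance trend and leaving out each array, and, added after seeing the data, both arrays of a number.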

Additional observations from a re-analysis of the deposited data

How the results depend on the processing

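Under all 17 alternatives 0 members were called in either direction in limma, and the smallest adjusted p of any member was 0.721. Counts at an unadjusted p under 0.05 moved with the settings. The 2 higher members became 1 with arrays centred on their median, 1 among genes above the background reference, 4 after averaging each gene's probe sets and 1 with the most variable probe set. Leaving out each array in turn gave 0 to 6 higher and 1 to 4 lower members. Leaving out control array 1 gave 1 and 1, leaving out control array 3 gave 0 and 3, and leaving out REST shRNA arrays 1, 2 or 3 gave 6 and 4, 5 and 3, or 1 and 4. The count of lower members was 1 without control array 2 and 4 in the fit with the replicate block. Without both arrays numbered 1 the counts were 1 and 0, and without both numbered 3 they were 0 and 5. The median difference of the family was -0.027 with quantile normalization and -0.034 with centred arrays, against 0.02, and that over all genes was 0.003 and -0.015, against 0.04.

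Of 20 genes recomputed, 13 kept their direction throughout, Rest, Hcn2, Kcnk7, Kcnj13, Kcnh7, Pex5l and Kcnip1 among them. An unadjusted p under 0.05 was kept in 15 of 17 settings for Kcnj13, 12 for Hcn2, 9 for Kcnh7 and 6 for Kcnk7. Each of these genes was read by a single probe set, so the settings with other probe sets could not change its difference. The sign turned for the other 7. Leaving out single arrays gave Kcnma1 -0.15 (REST shRNA 2) to 0.81, Kcnn2 -1.45 to 0.16 (REST shRNA 2), Kcna1 -0.14 (REST shRNA 3) to 0.63, Kcnc2 -0.43 (control 1; also -0.43 for REST shRNA 3) to 1.04, Kcnd2 -0.60 to 0.059 (REST shRNA 3) and Kcnu1 -0.25 (control 1; -0.07 for REST shRNA 3) to 0.26. Omitting both arrays numbered 2 gave -0.16 for Kcnma1 and 0.20 for Kcnn2, and omitting both numbered 1 gave -0.26 for Kcnu1. Kcnq5 was -0.014 averaged over probe sets and -0.13 by the most variable one, and Kcnu1 was -0.01 with quantile normalization and -0.014 with centred arrays. Where an array left out does not show it, the cause was not tested.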
